A study of Mus musculus with 24 samples.

Results

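Gene expression in thymocytes of *Prkdc* Scid/Scid mice, the control animals of a study of the *TLX1* oncogene, was compared between consecutive stages of T cell development, DN2 and DN3. The 4 DN3 arrays and the 4 DN2 arrays of the control pools were chosen, 8 of the 24 arrays of the series, and DN3 was compared with DN2 within each pool. Of the 45037 probe sets of the array, 13293 had a mean MAS5 signal (a linear brightness value for a transcript) of 100 or more in at least 1 of the stages and were kept for description. These comprised 12422 that passed at both stages, 342 that passed through DN2 alone and 529 that passed through DN3 alone. Just inside this limit lay probe sets of *Nmrk1* and *Ppil2*, with a higher stage mean of 100.01 and 100.05, and just outside it lay probe sets of *Nab1* and *Kif5b*, at 99.99 and 99.97.

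Each control pool combined thymocytes from 2 to 5 mice of one sex on an outbred ICR background. Pools 1 and 3 were male and pools 2 and 4 were female, and the labels put the mice at 6 to 8 weeks, whereas the study's description of the cohorts includes younger mice in some control and TLX1 pools. All were homozygous for *Prkdc* Scid and negative for the HOX11 (TLX1) transgene, and the labels name no drug treatment. Cells were sorted by CD44 and CD25 with antibodies to CD4 and CD8 in the stain, and the labels call the cells negative for B220 and CD3. The comparison group used further on, *IgHμ-TLX1* Tg *Prkdc* Scid/Scid thymocytes (TLX1), came from 4 other pools that the labels give the same background and age, although the study's methods describe a cross of a CD1 line with ICR mice, and in these pools an immunoglobulin heavy chain promoter that is mainly active in B cells drives the transgene. The DN fractions of a pool share 1 animal identifier in the labels. Because only pooled RNA was measured, fewer cells of a type and less RNA per cell cannot be told apart.

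Early thymocytes that lack CD4 and CD8 pass through DN1, DN2 and DN3, which are defined by the loss of the adhesion receptor CD44 and the gain of the IL-2 receptor alpha chain, CD25. DN2 cells retain progenitor genes and divide under the influence of Kit and IL-7 signals, and Notch signals drive them into the T lineage. At DN3 the recombinase RAG1/RAG2 cuts the T cell receptor beta locus, and a productive beta chain pairs with pre-TCR alpha and CD3 to release the cell into renewed division. The *Prkdc* Scid mutation disables DNA-PKcs, which is needed to rejoin these breaks, so that few cells pass this checkpoint.

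The sorted genes behaved as the gates define them, and this is a check of the labels and not a result. *Cd44* signals in pools 1 to 4 were 139, 80.3, 153 and 115 at DN2 and 18.9, 16.4, 14.6 and 13.04 at DN3, without overlap. *Il2ra*, which encodes CD25, had 5388, 4688, 5518 and 4766 as its DN2 signals and 5541, 5509, 4398 and 5471 as its DN3 signals. The groups of *Il2ra* overlapped, and it was the DN3 array of pool 3 that lay lowest. *Kit*, the receptor for stem cell factor and a DN2 marker outside the sort, went from 344, 201, 433 and 487 at DN2 to 138, 89.5, 197 and 227 at DN3 and was lower in each of the 4 pools although the groups overlapped (log2 difference -1.18 ± 0.07 (SE), limma adjusted p = 0.00624).

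Pool 3 stood apart from the other control pools in several respects. An index of RNA quality was taken from *Actb* and *Gapdh* as how far the log2 signal of their 3' controls exceeded that of their 5' controls. It was 0.236, 0.403, 0.990 and 0.441 in the DN2 arrays of pools 1 to 4 and 0.520, 0.572, 0.501 and 0.524 in their DN3 arrays. The DN2 array of pool 3 had the highest value, and the mean difference between stages was 0.0118 ± 0.344 (SD), with an exact permutation p of 1 where 0.125 is the smallest that 4 pairs can give. In the study's description of the cohorts this pool also had a large share of thymocytes outside the DN1 to DN3 gates. The signals of an array had medians of 15.9 to 19.2 at DN2 and 16.6 to 21.4 at DN3, so a signal near 20 is no more than that of a typical probe set, most of which are dim.

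DN3 thymocytes were higher than DN2 thymocytes for 132 kept probe sets, which is 0.993% of 13293, and lower for 98, which is 0.737% (limma with the pool as a block, adjusted p under 0.05). Together these are 1.73%. Of the probe sets kept through DN2 alone 35 of 342 were called lower (10.2%), and of those kept through DN3 alone 20 of 529 were called higher (3.78%), differences that the limit on signal itself favours. Named genes kept through DN2 alone include *Cd44*, *Csf1r*, *Ctss*, *Tyrobp*, *Gzmb*, *Clec4e*, *Bex6* and *Cd5*, and *Scn4b* was kept through DN3 alone. The called rises had a median log2 difference of 0.79 and the called falls of -1.04, and 37 of the rises and 51 of the falls were at least 1 log2 unit in size. Each of the 230 probe sets moved in the same direction in all 4 pools. Their DN2 and DN3 signals did not overlap for 81 of the rises and 81 of the falls, where 2.99% and 2.53% of the kept probe sets were separated in this way. With 1 probe set per gene, the brightest, 91 of 18194 genes were called higher (0.5%) and 98 lower (0.539%), together 1.04%. Among the 7801 genes whose brightest probe set was kept, 81 were higher (1.04%) and 78 lower (1%). At the looser thresholds of the study's methods, a 1.4-fold change with p up to 0.05 before adjustment, limma gave 516 probe sets higher (3.88%) and 331 lower (2.49%).

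The number of calls depended on single pools and on the model. Without pool 3 there were 345 calls of higher (2.6%) and 377 of lower signal (2.84%), whereas without pool 1, 2 or 4 there were 0, 0 and 0 of higher and 1, 0 and 2 of lower signal by the same limma test. At an unadjusted p under 0.05 those 3 fits gave 1390, 1472 and 1269 higher and 1001, 961 and 961 lower. All 230 probe sets stayed below that p whichever pool was left out, but they had been selected on these same arrays. As each moved in one direction in all 4 pools, leaving out a pool could not turn its sign. Without the block for pool there were 16 and 31 calls, and without a trend of the variance on signal 0 and 0, with 883 and 556 at an unadjusted p under 0.05. With 1 probe set per gene, 248 of 18194 genes were called higher without pool 3 (1.36%) and 274 lower (1.51%), and the counts of lists without that pool given further on are to be read against these shares. Pool 3 was singled out from these same data, so those counts are descriptions. A gene that was not called is not shown to be equal.

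**Figure D1:**
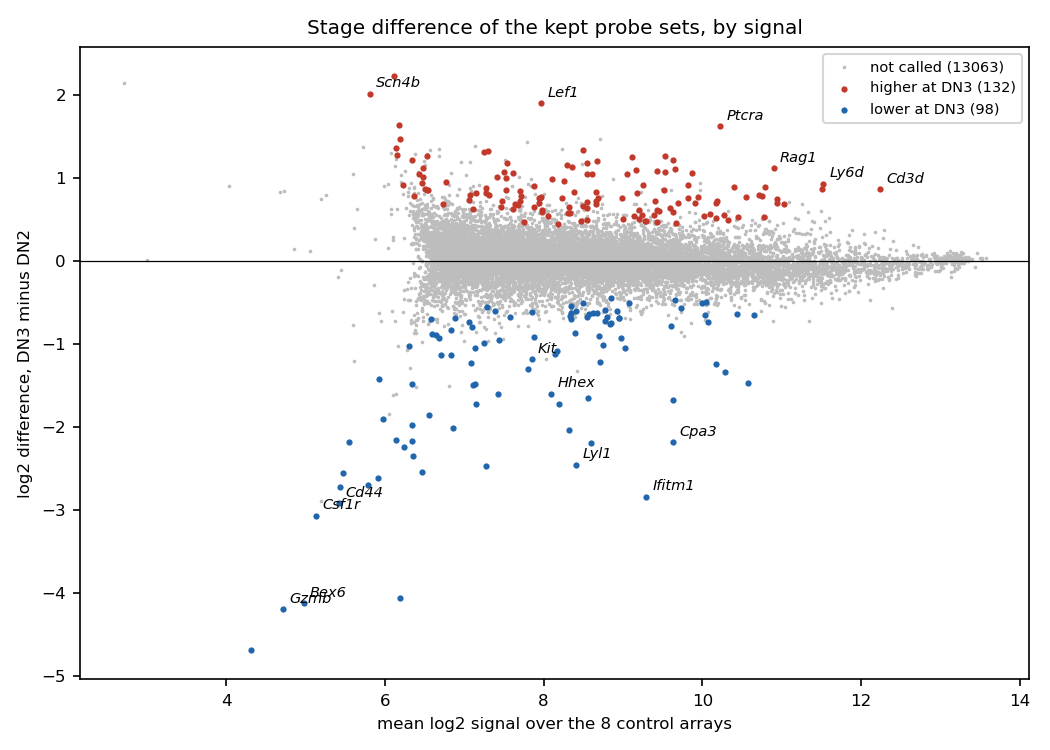
Log2 difference between DN3 and DN2 (vertical axis) against the mean log2 signal over the 8 control arrays (horizontal axis) for the 13293 kept probe sets. The 132 probe sets called higher (red) reach to signals of *Cd3d* and *Ly6d*, while the largest of the 98 falls (blue), such as *Gzmb* and *Csf1r*, lie at low mean signals and *Lyl1*, *Cpa3* and *Ifitm1* fell from high ones.

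Components of the pre-TCR and the recombinase were among the genes that rose. *Ptcra*, which encodes the invariant pre-TCR alpha chain, had signals of 689, 933, 674 and 492 at DN2 and 2126, 2261, 2207 and 1821 at DN3, a 3.08-fold rise with no overlap between the stages (log2 1.63 ± 0.10 (SE), limma adjusted p = 0.00624). *Rag1*, the catalytic subunit of the recombinase, went from 1075, 1320.4, 1541 and 1266 to 2609, 2825, 3425 and 2484, a 2.18-fold rise (log2 1.12 ± 0.07 (SE), limma adjusted p = 0.00624). *Cd3d*, which encodes the CD3 delta chain of the receptor complex, rose from 3454, 4070.1, 3868 and 2949.9 to 6614, 7271, 5512 and 6792 (log2 0.87 ± 0.12 (SE), limma adjusted p = 0.0443). In all 3 genes every DN3 array lay above every DN2 array. Of 22 measured genes of the pre-TCR, CD3 and proximal signalling, 21 passed the limit on signal, 2 were called higher (*Ptcra* and *Cd3d*) and none lower, and the median log2 difference was 0.25 where the median of all 18194 genes was 0.04. Over all genes 0.5% were called higher and 54.8% lay above 0. The differences of 20 of the 22 were above 0, and 4 were called higher without pool 3. *Cd247*, the zeta chain of the receptor, and *Fyn*, a Src family kinase, did not pass the test, with log2 differences of 0.40 and 0.36 (adjusted p = 0.0980 and 0.106), although each was higher in all 4 pools.

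Among 18 measured genes of V(D)J recombination and end joining, *Rag1* alone was called, the median of the list was 0.04, and 2 were called higher without pool 3. Of the 18, 9 lay above 0 and 9 below it, and over all genes 0.5% were called higher. *Xrcc6*, which encodes the Ku70 subunit that binds DNA ends, had signals of 1989, 2099, 2273 and 2029 at DN2 and 2717, 2670.4, 4706 and 2897 at DN3. These groups did not overlap, and the highest value came from pool 3, whose DN3 array lay far above the others. Its log2 difference was 0.59 (adjusted p = 0.116) and 0.44 without pool 3 (adjusted p = 0.0439). *Lig4*, the ligase of end joining, was at 0.36 and *Nbn*, a subunit of the break-sensing MRN complex, at -0.39, and neither passed the test (adjusted p = 0.115 and 0.0721).

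The promoters of *Ptcra* and *Rag1* are shown because both genes rose and both are known to respond to E proteins, which bind E boxes. They run from 250 bases before to 50 bases after the annotated start (RefSeq, GRCm38.p6). Capitals mark the E box CAGCTG, and also the E box written CAGGTG, on either strand. *Ptcra* lies at chr17:46763663-46763962, minus strand, and *Rag1* at chr2:101649483-101649782, minus strand.
Ptcra: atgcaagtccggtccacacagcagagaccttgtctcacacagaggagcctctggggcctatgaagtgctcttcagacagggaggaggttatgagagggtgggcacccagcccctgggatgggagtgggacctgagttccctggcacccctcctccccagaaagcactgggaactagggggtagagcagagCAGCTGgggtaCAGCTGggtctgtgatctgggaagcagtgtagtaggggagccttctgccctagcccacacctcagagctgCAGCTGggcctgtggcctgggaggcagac
Rag1: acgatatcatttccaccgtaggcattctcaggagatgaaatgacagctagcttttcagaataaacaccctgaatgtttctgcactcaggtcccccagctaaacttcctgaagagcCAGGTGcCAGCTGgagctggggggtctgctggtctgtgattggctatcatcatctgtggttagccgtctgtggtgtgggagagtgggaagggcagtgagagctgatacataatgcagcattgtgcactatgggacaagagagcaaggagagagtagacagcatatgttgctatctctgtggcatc
The *Ptcra* promoter holds CAGCTG 3 times, and that of *Rag1* holds each motif once. CAGCTG was found in 5 of 27 promoters of the pre-TCR list (18.5%) and 5 of 14 of the recombination list (35.7%), where 16.3% of all 32851 promoters of this length hold it. CAGGTG was found in 12 of 27 (44.4%) and 1 of 14 (7.14%), against 20.2% of all. These are matches of letters and not measured binding.

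**Figure D2:**
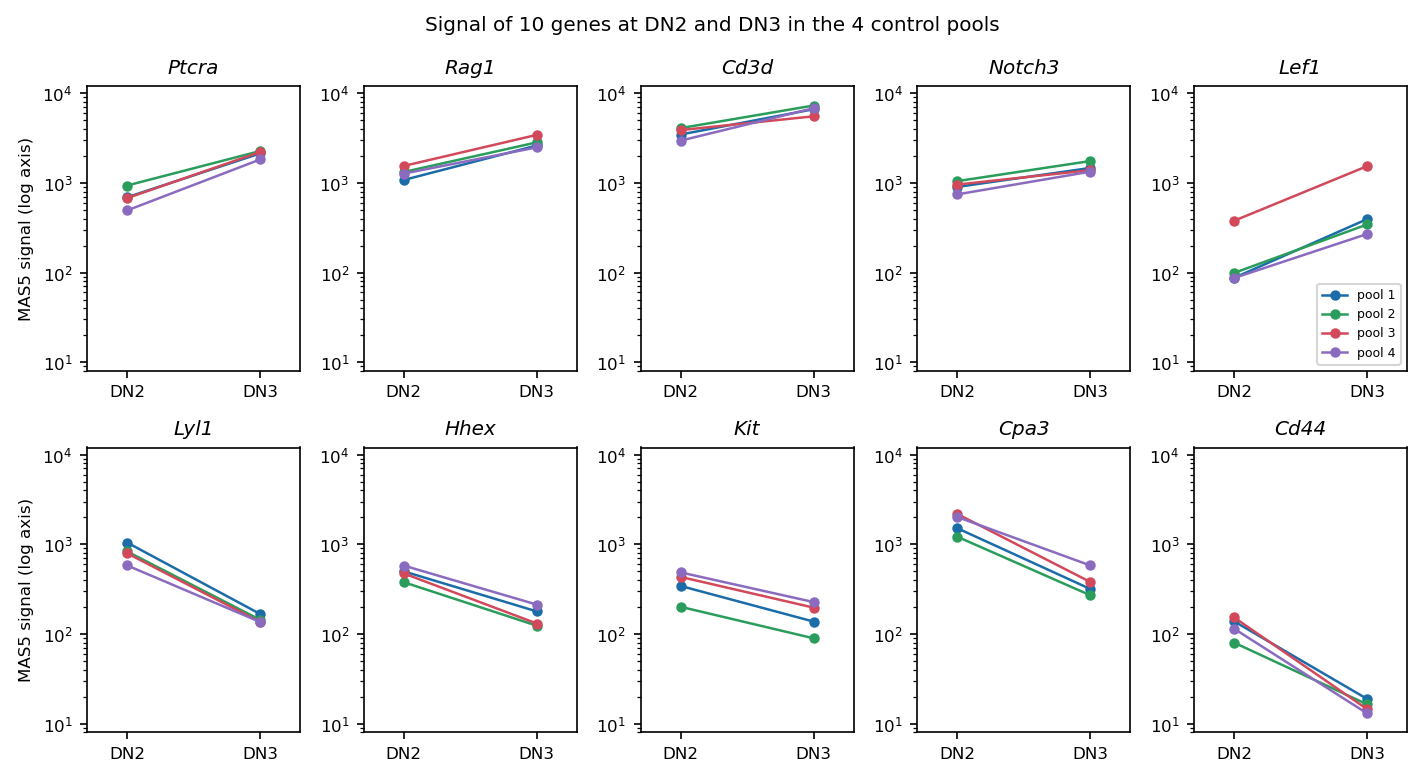
MAS5 signals on a log axis for 10 genes at DN2 and DN3, with 1 line for each of the 4 control pools. The lines of *Ptcra*, *Rag1*, *Cd3d*, *Notch3* and *Lef1* run upwards in every pool and those of *Lyl1*, *Hhex*, *Kit*, *Cpa3* and *Cd44* downwards, and *Lef1* in pool 3 lies above the other pools at both stages.

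Notch receptors and target genes gave 3 calls, all higher at DN3, among 22 measured (17 passed the limit on signal), with a median log2 difference of 0.21 against 0.04 over all genes, of which 0.5% were called higher. They were *Ptcra*, which is also in the pre-TCR list, *Notch3* and *Dtx1*. Leaving out pool 3 gave 4 higher and 1 lower. *Notch3*, a receptor that is itself a target of Notch signalling in thymocytes, had signals of 900.3, 1044, 956 and 743 at DN2 and 1464, 1749, 1383 and 1332 at DN3 (log2 0.71 ± 0.07 (SE), limma adjusted p = 0.0193). *Dtx1*, which encodes the Deltex ubiquitin ligase, went from 2002, 1973, 1142 and 1597 to 2968, 3078, 1937 and 2771 (log2 0.69 ± 0.07 (SE), limma adjusted p = 0.0176). The stages of *Dtx1* overlapped because pool 3 was lowest at both, while the rise was seen within each pool. *Hes1*, a repressor induced by Notch, was higher in all 4 pools by a log2 of 0.37 without passing the test (adjusted p = 0.0870), and at 0.42 it passed without pool 3 (adjusted p = 0.0407).

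Of 28 measured transcription factors of T lineage commitment, 22 passed the limit on signal, and *Lef1*, *Ets2* and *Satb1* were called higher and none lower (median log2 0.10), where 0.5% of all genes were called higher. Without pool 3 there were 7 called higher and none lower with a median of 0.23, and the median within pool 3 was -0.01. *Lef1*, an HMG box factor of the Wnt pathway that works beside TCF-1 in thymocytes, had signals of 87.1, 98.8, 377 and 86.8 at DN2 and 393, 343, 1532 and 269 at DN3. Pool 3 was several times as high as the other pools at both stages, so that the groups overlapped, but each pool rose by a similar factor, 3.75-fold on average (log2 1.91 ± 0.10 (SE), limma adjusted p = 0.00383). *Ets2*, an ETS family factor, went from 289, 243, 338 and 226 to 503, 469, 783 and 532 (log2 1.05 ± 0.09 (SE), limma adjusted p = 0.0144). *Satb1*, a chromatin organiser of thymocytes, went from 1295, 1618, 1544 and 1413 to 1846, 2088, 2421 and 2157 (log2 0.53 ± 0.07 (SE), limma adjusted p = 0.0423). For *Ets2* and *Satb1* every DN3 value exceeded every DN2 value. 1 of the 2 other probe sets of *Ets2* had the opposite sign, while those of *Satb1* all shared its direction. *Spib*, an ETS factor related to PU.1, did not pass the test with pool 3 included (log2 0.99, adjusted p = 0.0831) and passed without it (1.21, adjusted p = 0.0281).

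Progenitor transcription factors moved the other way. Of 25 measured genes 22 had a log2 difference below 0, the median was -0.65, and 4 were called lower and none higher, where 0.539% of all genes were called lower. Only 11 of the 25 passed the limit on signal. *Lyl1*, a basic helix-loop-helix factor of blood progenitors, had signals of 1047, 833, 795 and 582 at DN2 and 167, 144, 136 and 136 at DN3, a 5.48-fold fall (log2 -2.45 ± 0.10 (SE), limma adjusted p = 0.00207). *Hhex*, a homeobox factor, went from 499, 378, 473 and 579 to 179, 124, 131 and 213 (log2 -1.60 ± 0.09 (SE), limma adjusted p = 0.00383), and *Nfe2*, a leucine zipper factor of the megakaryocyte and erythroid lineages, from 1624, 1246, 1209 and 1205 to 1036, 815, 656 and 887 (log2 -0.65 ± 0.08 (SE), limma adjusted p = 0.0404). None of these 3 genes overlapped between the stages. *Spi1*, which encodes PU.1, stayed under the limit on signal, with 91.7, 80.02, 53.1 and 47.00 at DN2 and 30.99, 32.2, 17.02 and 23.9 at DN3, and was called lower (log2 -1.37 ± 0.18 (SE), limma adjusted p = 0.0413). *Bcl11a*, a zinc finger factor of lymphoid progenitors, was lower in each pool by a log2 of -0.51 and did not pass (adjusted p = 0.108), and 2 of its 6 other probe sets had the opposite sign.

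Surface receptors of progenitors were also among the falls. Among 18 measured progenitor and gate markers, 6 were called lower, *Kit*, *Cd44*, *Cd34*, *Cd93*, *Csf1r* and *Csf2rb*, and 1 higher, *Ly6d*, and the median log2 difference was -0.69. Over all genes 0.539% were called lower and 0.5% higher, and 9 of the 18 markers passed the limit on signal. *Cd44* is in this list through the sort. *Cd93*, a receptor of early progenitors, had signals of 719, 677, 502 and 630.0 at DN2 and 425, 435, 316 and 387 at DN3 (log2 -0.69 ± 0.06 (SE), limma adjusted p = 0.0141). *Csf1r*, the receptor for macrophage colony-stimulating factor, had 107, 149, 92.4 and 72.6 at DN2 and 7.33, 15.6, 16.5 and 11.4 at DN3 (log2 -3.07 ± 0.27 (SE), limma adjusted p = 0.0144). Its DN3 signals are below the median of an array, and with an offset of 32 added before the logarithm the difference was -1.59. *Cd34*, a sialomucin of progenitors, stayed under the limit with 95.3, 60.2, 83.4 and 156 at DN2 and 4.26, 5.42, 10.4 and 11.6 at DN3. *Ly6d*, a GPI-anchored protein of lymphoid progenitors and B cells, was the only called rise, from 1955, 1567, 2825 and 2355 to 3918, 2884, 4623 and 5199 (log2 0.93 ± 0.09 (SE), limma adjusted p = 0.0149). Of the 18 markers 12 lay below 0 and 6 above it.

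Of 29 measured T cell surface glycoproteins and coreceptors, *Slamf6* and *Ctla4* were called higher and *Cd5* lower, with a median of 0.04, and without pool 3 there were 3 called higher and 3 lower. Over all genes and with all pools 0.5% were called higher and 0.539% lower. *Slamf6*, a SLAM family receptor, had signals of 139.8, 129.5, 160.1 and 117 at DN2 and 285, 229, 368 and 270.5 at DN3 (log2 1.07 ± 0.09 (SE), limma adjusted p = 0.0144), and *Ctla4*, an inhibitory receptor that binds B7 proteins, 182, 232, 204 and 269 and 452, 372, 349 and 569 (log2 0.96 ± 0.12 (SE), limma adjusted p = 0.0341). *Cd5*, a negative regulator of T cell receptor signalling, fell from 169, 112, 115 and 159 to 81.00, 55.5, 63.98 and 100.3 (log2 -0.90 ± 0.11 (SE), limma adjusted p = 0.0325). The stages of all 3 genes were separate. *Cd48*, a ligand of SLAM family receptors, was lower in each pool at a log2 of -0.51 without passing (adjusted p = 0.0802). *Itgb5* and *Itgb4*, integrin beta chains, were the only calls among 19 integrins (without pool 3, 2 higher and 1 lower), at log2 1.02 and 1.03 (adjusted p = 0.0181 and 0.0393). The 3 other probe sets of *Itgb5* had the opposite sign, and the median over all 4 of them was -0.88, so its direction is uncertain.

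Genes of myeloid and natural killer cells, and the mast cell gene *Cpa3*, lay among the largest falls. Of 22 measured myeloid and dendritic markers none had a log2 difference above 0, the median was -1.39, and 6 were called lower (*Mpo*, *Ctss*, *Csf1r*, *Tyrobp*, *Mpeg1* and *Fcer1g*). Over all genes 54.8% lay above 0 and 0.539% were called lower. 6 of the 22 passed the limit on signal, and *Mpo* was not among them, with a log2 signal of at most 6.52 at DN2. *Ctss*, which encodes the protease cathepsin S of antigen-presenting cells, had signals of 420.3, 429, 365 and 265 at DN2 and 67.8, 52.1, 67.5 and 77.5 at DN3 (log2 -2.47 ± 0.20 (SE), limma adjusted p = 0.0107). *Tyrobp*, an adaptor of activating receptors, went from 162, 143, 152 and 140.3 to 24.96, 27.4, 41.2 and 43.6 (log2 -2.16 ± 0.19 (SE), limma adjusted p = 0.0144). The summed signal of the 22 markers ranged from 3144 to 3583 at DN2 and from 1798 to 2961 at DN3, and *Lyz1* and *Lyz2* made up most of it. *Itgam*, which encodes CD11b, reached at most 13.5 at DN2 and 10.8 at DN3, and *Cd14* at most 4.87 and 7.36, no more than a typical dim probe set.

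*Cpa3*, which encodes the mast cell carboxypeptidase A3 and is also made in early progenitors, had signals of 1512, 1216, 2180.0 and 2017 at DN2 and 318, 270.3, 380.0 and 581 at DN3, a 4.54-fold fall (log2 -2.18 ± 0.12 (SE), limma adjusted p = 0.00383). It was the only one of 13 mast cell and basophil markers to pass the limit on signal. The median log2 difference of the 13 was -0.13, with 9 below 0 and 4 above it. Within pools 1 to 4 that median was -1.27, 0.43, -1.38 and 0, so the other members did not move together. The summed signal of the 13 ranged from 1281 to 2306 at DN2 and from 369 to 667 at DN3, nearly all of it *Cpa3*, while the high-affinity IgE receptor genes *Fcer1a* and *Ms4a2* reached at most 4.12 and 7.43 at DN2. Of 22 natural killer and innate lymphoid markers 3 were called lower, *Gzmb* and, shared with the myeloid list, *Tyrobp* and *Fcer1g*, where 0.539% of all genes were. The median of the list was -0.50, 16 of the 22 were below 0 and 6 above it, the highest at 0.93. Only 5 of the 22 passed the limit on signal. The summed signal of the 22 ranged from 4787 to 6273 at DN2 and from 4219 to 5429.6 at DN3. *Gzmb*, the protease granzyme B, had 106, 82.9, 98.6 and 187 at DN2 and 4.08, 1.72, 7.01 and 29.2 at DN3. Its log2 difference of -4.19 depends on values near the floor of 1 and was -1.82 with the offset of 32. *Ncr1*, which encodes the NKp46 receptor, reached at most 16.4 at DN2 and 8.96 at DN3.

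Among 22 markers of thymic epithelium and stroma, *H2-Aa* and *Cd74* were called lower (log2 -2.70 and -1.90, adjusted p = 0.0167 and 0.0388), while 15 of the 22 were above 0 and the median was 0.12. Of the 22, 5 passed the limit on signal. Leaving out pool 3 gave 1 called higher and 2 lower. *H2-Aa* and *Cd74* encode an MHC class II chain and its invariant chain, which dendritic cells and B cells also make. *Epcam*, an epithelial adhesion molecule, was at 0.60 in the other direction and did not pass (adjusted p = 0.0874). The summed signal of the 22 ranged from 1807 to 2812 at DN2 and from 1629 to 3010.4 at DN3. None of 12 erythroid and none of 15 gamma-delta T cell markers was called by limma, with 2 and 5 at an unadjusted p under 0.05, and *Ly6d* was the 1 call among 18 B lineage markers. Of these erythroid, gamma-delta and B lineage markers 2, 7 and 5 passed the limit on signal, and a lack of calls among dim genes says little. Without pool 3 there was 1 erythroid marker called lower and 3 B lineage markers called higher. Of 16 markers of the later double-positive stage, *Rag1*, *Ets2* and *Satb1* were called higher and none lower, with a median of 0.50, 14 of the 16 differences were above 0, and 6 were called higher without pool 3. *Rag1* is also in the recombination list, and *Ets2* and *Satb1* are in that of T lineage commitment, so these are not separate calls. Over all genes 0.5% were called higher, 0.539% were called lower and 54.8% were above 0. In pools 1 to 4 the median log2 signal of this list was 7.84, 7.03, 9.96 and 7.33 at DN1. It was 7.83, 7.62, 8.02 and 7.51 at DN2 and 8.12, 7.97, 9.25 and 8.10 at DN3. Pool 3 was highest at each stage. *Arpp21*, a thymocyte phosphoprotein, was higher in each pool without passing (log2 0.50, adjusted p = 0.0562). What other cells in the sorted fractions contribute to any of these differences was not tested.

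**Figure D3:**
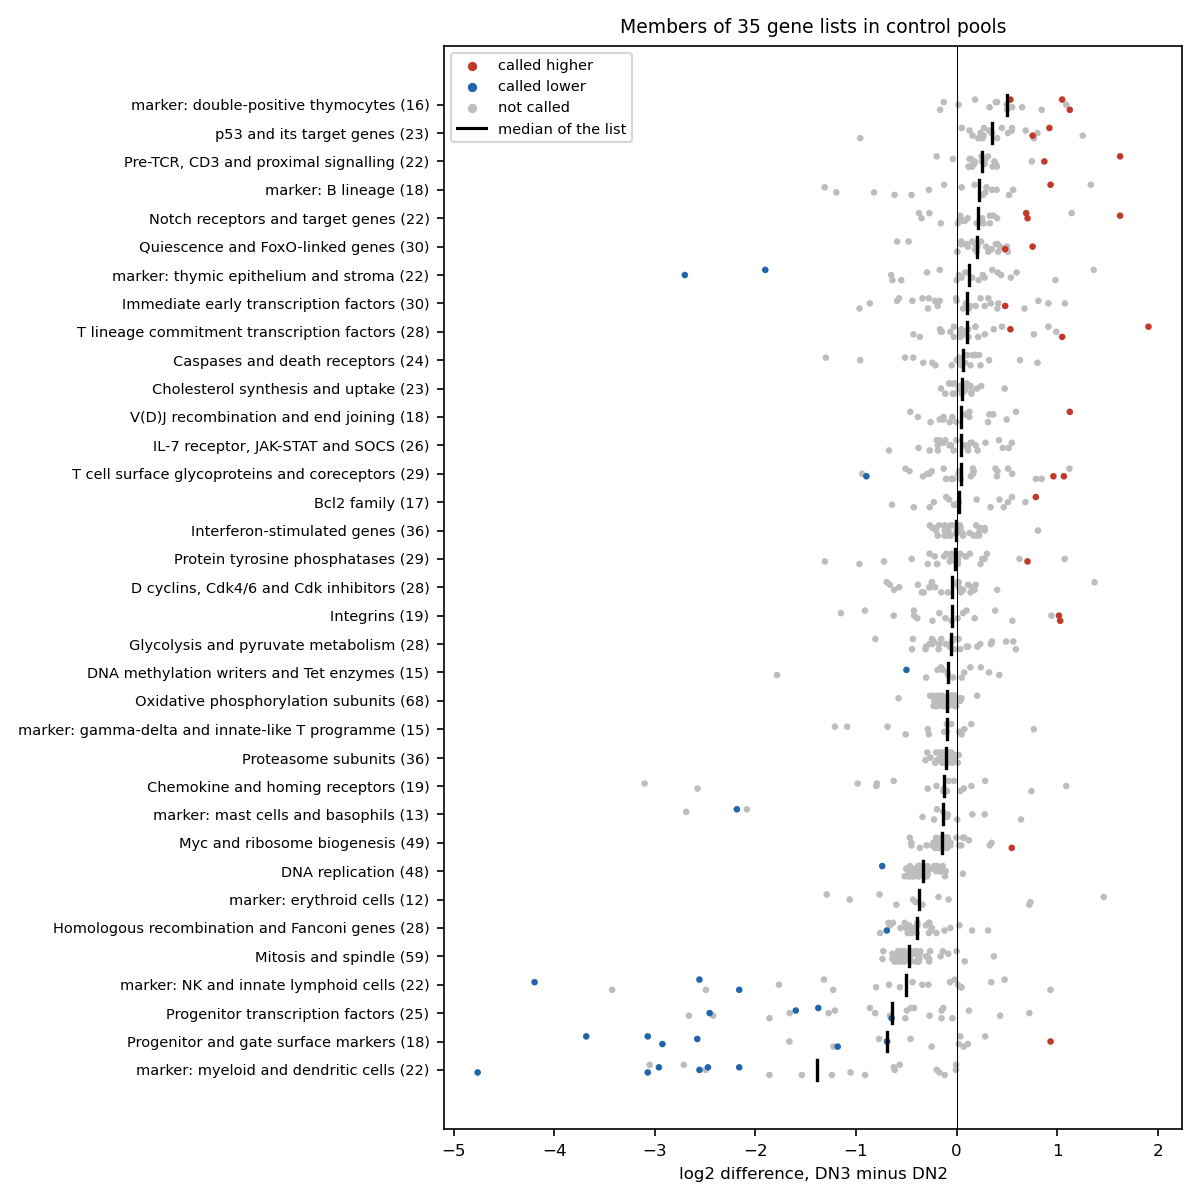
Log2 difference between DN3 and DN2 (horizontal axis) of each measured member of 35 gene lists, with 1 probe set per gene, the number of measured members in parentheses and a black bar at the median of each list. Members called higher are red, members called lower blue and the rest grey. The myeloid and natural killer lists reach furthest to the left, and the lists of mitosis and DNA replication lie left of 0 with almost no called member.

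Targets of p53 lay above 0 in 22 of 23 measured genes, with a median log2 difference of 0.35, and 2 of them, *Btg2* and *Zmat3*, were called higher. *Btg2*, an antiproliferative gene, had signals of 289, 314, 266 and 410.4 at DN2 and 502, 503, 430.3 and 739.5 at DN3 (log2 0.76 ± 0.06 (SE), limma adjusted p = 0.0141). *Zmat3*, which encodes an RNA-binding protein induced by p53, went from 460.0, 396, 410.1 and 509.6 to 929, 786, 620.2 and 1085 (log2 0.92 ± 0.09 (SE), limma adjusted p = 0.0215). Neither gene overlapped between the stages. *Phlda3*, an inhibitor of Akt, and *Polk*, a translesion polymerase, were higher in each pool at log2 0.55 and 0.45, with adjusted p of 0.0679 and 0.0512. Over all genes 54.8% were above 0 and 0.5% were called higher. In TLX1 pools 9 of the 23 were called higher, where 3.58% of all genes were. Without pool 3, 5 members of this list were called higher and none lower.

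Genes linked to quiescence and FoxO factors gave a similar picture, with 28 of 30 above 0, a median of 0.21, and *Btg2* and *Slfn2* called higher. Over all genes 54.8% were above 0 and 0.5% were called higher. *Slfn2*, a Schlafen gene required for T cell quiescence, went from 351, 311, 292 and 257 to 515, 445, 390.2 and 348 (log2 0.48 ± 0.06 (SE), limma adjusted p = 0.0413). *Btg1*, a relative of *Btg2*, and *Pik3ip1*, an inhibitor of PI3 kinase, were at 0.51 and 0.50 (adjusted p = 0.0529 and 0.0579). Without pool 3 the list held 6 calls, all higher. In the Bcl2 family, with 17 measured members, *Bmf*, a proapoptotic BH3-only gene, was the only call (log2 0.79 ± 0.10 (SE), limma adjusted p = 0.0407), and without pool 3 there were 3 called higher and 1 lower. *Bcl2l11*, which encodes the BH3-only protein Bim, was separated between the stages with 459, 318, 549 and 491 at DN2 and 726, 613, 715 and 826 at DN3, and lay just outside the threshold (log2 0.68 ± 0.10 (SE), limma adjusted p = 0.0514). *Bbc3* and *Pmaip1*, which encode Puma and Noxa, were at 0.55 and 0.51 and did not pass (adjusted p = 0.100 and 0.145).

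Proliferation genes differed between the pools. Of 59 measured genes of mitosis and the spindle, 58 passed the limit on signal and none was called, with 34 lower and none higher at an unadjusted p under 0.05 by limma, and the median log2 difference was -0.47. Within pools 1 to 4 that median was -0.64, -0.72, 0.24 and -0.78. The list was thus lower at DN3 in pools 1, 2 and 4 and higher in pool 3, and without pool 3 42 of the 59 were called lower, where 1.51% of all genes were. None of the 59 was called lower when pool 1, 2 or 4 was left out instead. Pool 3 was set apart by these same values, so the count without it is a description and no separate support. The median log2 signal of the list on the DN2 arrays was 8.87, 8.91, 8.96 and 8.84 in pools 1 to 4, and on the DN3 arrays 8.43, 8.32, 9.26 and 8.04. It was the DN3 array of pool 3 and not its DN2 array that lay apart. On the DN1 arrays of the same pools the list stood at 7.46, 8.02, 9.40 and 7.13, again with pool 3 highest.

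Single genes differed in pool 3. In that pool 8 of the 59 mitosis genes lay below 0, and 8 were lower in all 4 pools. Apart from *Mki67*, the genes given here have the smallest p of the list, which favours genes that fell in every pool. *Mki67*, which encodes the proliferation antigen Ki-67, had signals of 2289, 2558, 2771 and 2583 at DN2 and 1508, 1509, 2863 and 1394 at DN3, lower in pools 1, 2 and 4 and slightly higher in pool 3. Its log2 difference was -0.55 (adjusted p = 0.202) with all pools and -0.75 without pool 3 (adjusted p = 0.0292). *Tpx2*, a spindle assembly factor, went from 589.7, 595, 629 and 479 to 379, 314, 585 and 259, and pool 3 changed least (log2 -0.64, adjusted p = 0.132, and -0.82 without pool 3, adjusted p = 0.0307). *Cenpk*, a centromere protein, *Plk4*, the kinase of centriole duplication, and *Incenp*, a subunit of the chromosomal passenger complex, were lower in every pool, at log2 -0.54, -0.45 and -0.41 (adjusted p = 0.0870, 0.0994 and 0.125).

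DNA replication genes lay below 0 with less difference between the pools. Of 48 measured, 47 had a log2 difference below 0, 29 were lower in all 4 pools and the median was -0.34, and *Fen1* was called lower. Over all genes 45% were below 0, 11% were lower in all 4 pools and 0.539% were called lower. The median of the list within pools 1 to 4 was -0.43, -0.42, -0.08 and -0.42, weakest in pool 3, and 17 were called lower without that pool. *Fen1*, the flap endonuclease that trims Okazaki fragments, had signals of 1506, 1293, 1759.6 and 1099.7 at DN2 and 906, 699, 971 and 788 at DN3 (log2 -0.74 ± 0.08 (SE), limma adjusted p = 0.0294). *Pole*, the leading strand polymerase, and *Rpa2*, a subunit of the single-strand binding complex, were separated between the stages but did not pass, at -0.44 and -0.38 (adjusted p = 0.0672 and 0.0798). *Pola1*, the catalytic subunit of DNA polymerase alpha, was at -0.48 (adjusted p = 0.0836), and its 1 other probe set had the opposite sign.

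Homologous recombination and Fanconi genes lay below 0 in 25 of 28, with a median of -0.39 and medians within pools 1 to 4 of -0.55, -0.48, -0.18 and -0.37, and 6 were called lower without pool 3. Over all genes and with all pools 45% were below 0, 0.5% were called higher and 0.539% lower, and the counts below are to be read against these shares. *Exo1*, a 5' to 3' exonuclease, was called lower with signals of 451, 326, 565 and 351 at DN2 and 267, 203, 414 and 189.7 at DN3 (log2 -0.69 ± 0.09 (SE), limma adjusted p = 0.0376). *Blm*, the Bloom helicase, did not pass at -0.56 (adjusted p = 0.119). *Fanca*, of the Fanconi core complex, was at -0.47 (adjusted p = 0.0927) with its 1 other probe set opposite in sign. *Hells*, a chromatin remodeller needed for DNA methylation, was the only call among 15 genes of DNA methylation (2 lower without pool 3) and fell from 1116, 1179, 1368 and 1362 to 786, 833, 957 and 982 (log2 -0.50 ± 0.05 (SE), limma adjusted p = 0.0273). *Ccne2*, which encodes cyclin E2, was lower in each pool without passing (log2 -0.66, adjusted p = 0.0836), and none of 28 D cyclin, Cdk4/6 and Cdk inhibitor genes was called, with 3 higher and 9 lower at an unadjusted p under 0.05 by limma. When pool 3 was left out 4 of the 28 were called lower with a median of -0.17, and the medians within pools 1 to 4 were -0.17, -0.17, 0.13 and -0.16. Genes of Myc and ribosome biogenesis had a median of -0.14 with 41 of 49 below 0, and the single call was a rise of *Mxd4*, a Myc antagonist (log2 0.55 ± 0.06 (SE), limma adjusted p = 0.0324). Without pool 3 there were 1 called higher and 2 lower.

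**Figure D4:**
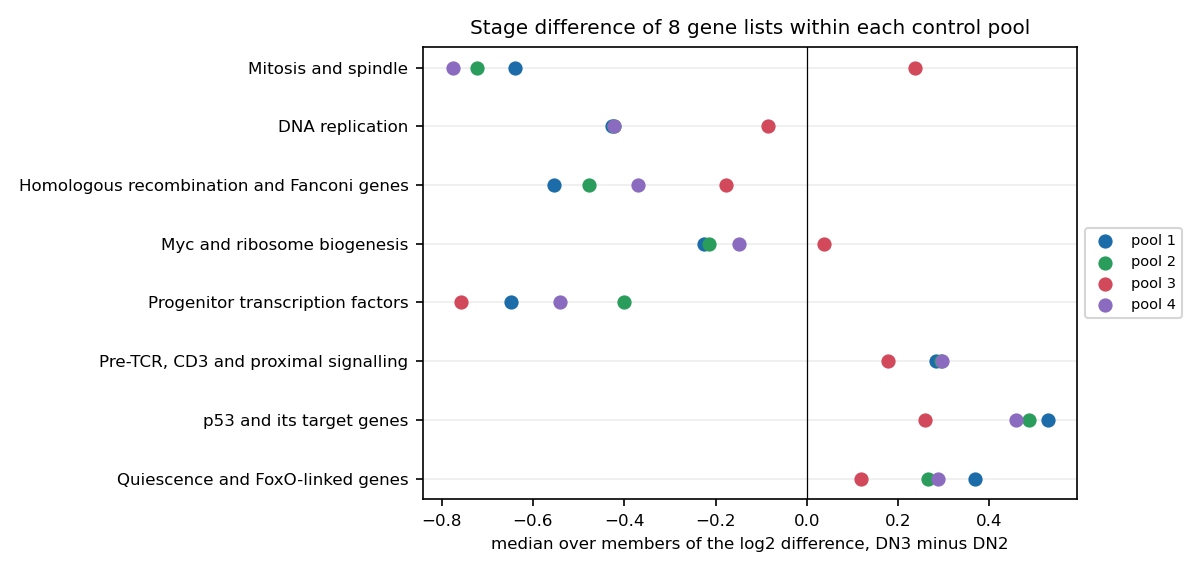
Median over the measured members of 8 gene lists of the log2 difference between DN3 and DN2 (horizontal axis), with 1 point for each control pool. The mitosis list lies between -0.78 and -0.64 in pools 1, 2 and 4 and at 0.24 in pool 3, while the progenitor list is below 0 and the pre-TCR, p53 and quiescence lists above 0 in every pool.

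Promoters of a replication gene and a mitosis gene are shown for the motifs that these lists share. For each list the member with the smallest p was taken that has a single promoter in the table and holds the motif, which gave *Rpa2* (chr4:132768110-132768409, plus strand) and *Mki67* (chr7:135716330-135716629, minus strand), both RefSeq, GRCm38.p6. Capitals mark TTCCCGC, an E2F motif, in *Rpa2*, and TTTGAA, the cell cycle homology region, and CCAAT in *Mki67*, on either strand.
Rpa2: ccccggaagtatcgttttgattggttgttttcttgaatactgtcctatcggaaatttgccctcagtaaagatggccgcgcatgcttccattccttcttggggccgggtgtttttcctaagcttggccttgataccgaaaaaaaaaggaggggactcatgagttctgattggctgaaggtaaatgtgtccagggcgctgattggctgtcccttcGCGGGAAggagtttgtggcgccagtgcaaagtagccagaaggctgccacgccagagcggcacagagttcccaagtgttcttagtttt
Mki67: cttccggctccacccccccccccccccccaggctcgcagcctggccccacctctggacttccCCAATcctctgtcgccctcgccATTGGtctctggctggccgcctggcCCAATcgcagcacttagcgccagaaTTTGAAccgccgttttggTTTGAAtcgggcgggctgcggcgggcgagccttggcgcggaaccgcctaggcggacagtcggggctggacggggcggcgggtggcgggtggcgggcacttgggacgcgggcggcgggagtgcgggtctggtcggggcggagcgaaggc
TTCCCGC was found in 18 of 47 promoters of the replication list (38.3%) and in 4.60% of all 32851 promoters. TTTGAA was found in 36 of 53 promoters of the mitosis list (67.9%) against 17.9% of all, and CCAAT in 38 of 53 (71.7%) against 37.4%. The promoter of *Mki67* holds TTTGAA 2 times and CCAAT 3 times, and that of *Rpa2* holds TTCCCGC once. A match of letters describes the sequence and says nothing of which factor was bound in these cells.

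None of 28 glycolysis genes, 68 subunits of oxidative phosphorylation, 23 genes of cholesterol synthesis and uptake or 36 proteasome subunits was called by limma, with medians of -0.06, -0.09, 0.05 and -0.10. At an unadjusted p under 0.05 they held 12, 12, 2 and 7 genes. Without pool 3, 2 glycolysis genes were called higher and 3 lower, 1 proteasome subunit was called lower, and no gene of the other groups was called. Of the oxidative phosphorylation subunits 63 of 68 and of the proteasome subunits 34 of 36 lay below 0, by small amounts, where 45% of all genes did. Nor was any of 26 genes of IL-7 receptor and JAK-STAT signalling, 19 chemokine and homing receptors, 24 caspases and death receptors or 36 interferon-stimulated genes called, with 10, 3, 7 and 6 at an unadjusted p under 0.05, and without pool 3 the only call was 1 gene of the first group, higher. *Zfp36l1*, which encodes an RNA decay factor, was the only call among 30 immediate early transcription factors and their partners (log2 0.48 ± 0.07 (SE), limma adjusted p = 0.0480), and *Ptprf*, a receptor tyrosine phosphatase, the only call among 29 phosphatases (log2 0.71 ± 0.08 (SE), limma adjusted p = 0.0273). Without pool 3 there were 1 higher and 1 lower of the former list and 2 higher of the latter. Over all genes and with all pools 0.5% were called higher.

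The largest changes included genes outside these lists. *Ifitm1*, an interferon-inducible membrane protein, had signals of 1849.8, 1653, 1252 and 2060.3 at DN2 and 225, 247, 166 and 324 at DN3 (log2 -2.84 ± 0.08 (SE), limma adjusted p = 0.000622), and its adjusted p was the smallest of all 18194 genes. *Clec4e*, the C-type lectin Mincle of myeloid cells, went from 213, 156, 185 and 188 to 54.7, 33.8, 32.3 and 28.7 (log2 -2.35 ± 0.15 (SE), limma adjusted p = 0.00624). *Bex6* fell from 146, 102, 86.9 and 233 to 3.81, 10.97, 8.59 and 9.08, and its log2 difference of -4.12 (adjusted p = 0.0158) was -2.05 with the offset of 32. *Apoe*, the lipid carrier apolipoprotein E, and *Fcer1g*, the Fc receptor gamma chain, were lower by log2 -2.62 and -2.56 (adjusted p = 0.0225 and 0.0314). *Adamdec1*, a metalloprotease of macrophages and dendritic cells, was 128, 121, 88.6 and 1527 at DN2 and 16.3, 20.7, 9.44 and 576 at DN3. Pool 4 was far above the other pools at both stages, and the fall was present in each (log2 -2.54 ± 0.29 (SE), limma adjusted p = 0.0307).

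On the other side, *Scn4b*, a sodium channel beta subunit, had the largest rise of the named genes, from 25.6, 35.6, 27.3 and 24.2 at DN2 to 129, 149.6, 86.3 and 98.3 at DN3 (log2 2.02 ± 0.15 (SE), limma adjusted p = 0.00943, and 1.28 with the offset). It was kept through DN3 alone, so the limit on signal itself favours its rise. *Tenm1*, a teneurin, went from 233, 212, 306 and 174 to 654, 556, 578 and 508 (log2 1.34 ± 0.11 (SE), limma adjusted p = 0.0143). *Ccdc18*, a coiled-coil gene, went from 403, 673, 452 and 420.2 to 1141, 1241, 1027 and 1190.3 (log2 1.27 ± 0.12 (SE), limma adjusted p = 0.0146). *Uaca*, another coiled-coil gene, had log2 1.26, and *Cd200*, an immunoglobulin family ligand, log2 1.47, each higher in all 4 pools though the stages overlapped (adjusted p = 0.0144 and 0.0341). *Airn*, a long noncoding transcript opposite *Igf2r*, *Hdgfl3*, *Scn2b*, *Ccdc153* and *Gm3716* rose from low signals by log2 1.19, 1.26, 1.28, 1.36 and 1.22 (adjusted p = 0.0389, 0.0485, 0.0389, 0.0485 and 0.0373).

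The same stages were measured in 4 pools of TLX1 thymocytes, which share no array with the control pools. Of the 132 probe sets called higher in control pools, 120 were also called higher there, which is 90.9% of the control list and 11.9% of the 1009 called higher in TLX1 pools, and of the 98 called lower, 93 were called lower there, which is 94.9% and 8.52% of 1092. Among all kept probe sets 7.59% and 8.21% were called higher and lower in TLX1 pools. All 230 had the same sign in both genotypes, and the median log2 difference was 0.79 in control and 0.81 in TLX1 pools for the rises and -1.04 and -1.02 for the falls. These shared counts rest on every control pool, being 0, 0 and 1 without pools 1, 2 and 4 and 583 without pool 3, and on every TLX1 pool, being 13, 7, 0 and 0 without TLX1 pools 1 to 4.

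In TLX1 pools *Ptcra* differed by log2 1.54, *Rag1* by 1.11, *Lef1* by 1.91 and *Lyl1* by -2.81 (adjusted p = 0.00745, 0.00405, 0.0110 and 0.00110). *Ifitm1* was lower there by a log2 of -2.26 and did not pass (adjusted p = 0.0754). The mitosis list had 43 of 59 members called lower in TLX1 pools with a median of -0.57, and the replication list 33 of 48 with -0.40, where 4.55% of all genes were called lower. The interaction of stage and genotype was called for no probe set, with 679 of 13293 kept probe sets (5.11%) at an unadjusted p under 0.05 by limma, and none of the 59 mitosis genes was among them, so the difference in calls between the genotypes is not a tested difference in the stage change. The 5 genes with the smallest interaction p were *Serf1* (log2 -0.88 in control and -0.13 in TLX1 pools), *Tspyl1* (0.05 and 0.56), *Dnajb4*, a heat shock cochaperone (0.61 and 0.01), *Rpl27a*, a ribosomal protein with near-identical copies in the genome (-0.28 and 0.62), and *Mpp5*, a polarity scaffold (0.19 and 0.78), all with an adjusted interaction p of 0.952.

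**Figure D5:**
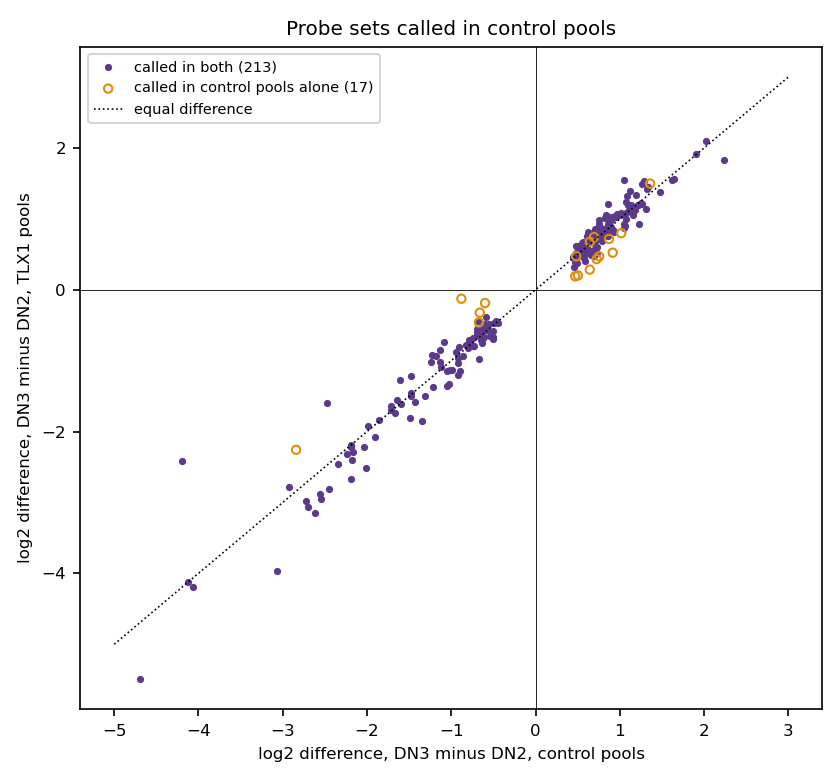
Log2 difference between DN3 and DN2 in TLX1 pools (vertical axis) against that in control pools (horizontal axis) for the 230 kept probe sets called in control pools. Filled points were called in both genotypes (213), open points in control pools alone (17), and the dotted line marks equal differences. The points were selected by their control values, and all lie in the quadrants of equal sign.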

How the data were processed

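RNA from sorted thymocytes was hybridised to Affymetrix mouse arrays, 1 per pool and stage. The authors deposited linear intensity values, MAS5 signals from the Affymetrix Expression Console (named in the submitters' processing notes), scaled so that an array's 2% trimmed mean is 150. No genome build is given in the sources used here, and detection flags were not used here.

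Of 45101 rows, 64 were array controls. Of the others, 34945 match 1 gene, 932 several and 9160 none, by the platform annotation, so gene names can be old. Signals were floored at 1 (6.25% to 10.6% of an array's values) and log2 transformed, so a fold change of a dim gene depends on the floor. DN3 was compared with DN2 with limma 3.58.1 (R 4.3.3), with the pool as a fixed block and a variance trend on signal, and Benjamini-Hochberg adjustment over all 45037 probe sets. Values under 0.05 were called, and calls were counted among probe sets with a mean signal of 100 or more at either stage. The number of arrays limits the precision (median SE of a kept probe set 0.0923 on the log2 scale). The study's methods name an unpaired test instead, which was run as an alternative.

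The pools pair the stages, since each number marks the same mice. Deviations from the stage means correlated with r of 0.654, 0.797, 0.635 and 0.870 in pools 1 to 4. The fits were tested on simulated data.

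Genes are given by their brightest probe set. The 35 lists (948 genes, 879 measured) are described by counts and medians with no set test. Named are the 12 largest called rises and falls with one direction in all pools, the 4 members of a list with the smallest p, the stage markers and the 5 smallest interaction p, except 1 gene that is not reported here. Other genes (*Mki67*, *Lyz1*, *Lyz2*, *Itgam*, *Cd14*, *Fcer1a*, *Ms4a2*, *Ncr1*, and called list members under the limit on signal) were added once their values had been seen, and members of lists without a call are given as counts. The comparison, its members and lists were chosen with earlier results of these data known. Alternatives covered scaling, floors, offset, variance model, block, weights, the RNA index as a covariate, the choice of probe set, the methods' test and leaving out each pool. Some genes, such as those with no probe set of their own, are not analysed here. Figures were drawn with matplotlib 3.10.9.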

Additional observations from a re-analysis of the deposited data

Results flagged for a closer look

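Of 204 sets of 4 values tested (log2 signals of named genes, list levels and the RNA index, at DN2 or DN3), 15 held 1 array far from the other 3, and chance gives about 1 in 20. In 9 of the 15 the array was of pool 3. Their causes were not tested. In pool 3 the DN3 array lay above the rest for *Xrcc6* (log2 signal 12.20, with the others at 11.383 to 11.501), *Hdgfl3* (log2 signal 8.20, with the others at 6.646 to 6.902) and *Mki67* (log2 signal 11.48, with the others at 10.445 to 10.559). In pool 3 the DN3 array lay below the rest for *Il2ra* (log2 signal 12.10, with the others at 12.418 to 12.436), *Bcl11a* (log2 signal 6.23, with the others at 7.150 to 7.276) and *Polk* (log2 signal 8.65, with the others at 9.046 to 9.117). In pool 3 the DN2 array lay above the rest for *Lef1* (log2 signal 8.56, with the others at 6.439 to 6.626) and *Plk4* (log2 signal 10.12, with the others at 9.589 to 9.673). In pool 3 the DN2 array lay below the rest for *Pik3ip1* (log2 signal 9.69, with the others at 10.171 to 10.242). In pool 2 the DN2 array lay above the rest for *Nbn* (log2 signal 8.73, with the others at 8.421 to 8.457) and *Mpo* (log2 signal 6.52, with the others at 6.340 to 6.359). In pool 2 the DN2 array lay below the rest for *Cd48* (log2 signal 11.45, with the others at 11.832 to 11.851). In pool 1 the DN2 array lay above the rest for *Nfe2* (log2 signal 10.66, with the others at 10.235 to 10.283). In pool 4 the DN2 array lay above the rest for *Adamdec1* (log2 signal 10.58, with the others at 6.470 to 7.003). In pool 4 the DN2 array lay below the rest for *Pola1* (log2 signal 9.30, with the others at 9.746 to 9.817). No named gene was called for a difference in its stage change between control and TLX1 pools.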

How the results depend on the processing

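All 230 called probe sets kept their direction under all 15 refits that tested them. As each moved in one direction in all 4 pools, most of these refits could not turn it. Only quantile normalization, median centring and the RNA index as a covariate could have done so. Calls of higher and lower signal, 132 and 98, became 216 and 162 with median centring, 260 and 175 with an offset of 32, 476 and 320 when adjusted over the brightest 60%, 606 and 479 with array weights, 463 and 386 with the RNA index as a covariate, 16 and 31 with no replicate block, and 0 and 0 with no variance trend (limma, 883 and 556 at an unadjusted p under 0.05). Without the trend but on the kept probe sets alone, an alternative chosen after seeing the data, they were 490 and 297. With all 24 arrays the rises were 87. The methods' unpaired t-test gave 1 and 5 after Benjamini-Hochberg adjustment, and at a p of at most 0.05 and a fold of 1.4 it gave 278 and 190, where limma gave 516 and 331. With the median over a gene's probe sets 51 and 49 genes were called, against 81 and 78. Leaving out 1 pool gave 0 to 345 and 0 to 377 calls. The cause of these shifts was not tested, except that leaving out a pool leaves fewer arrays. Quantile normalization, the random block and the other limits on signal kept both counts within 1.5 times.

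The 213 probe sets called in both genotypes became 42 with no replicate block, 400 with the offset and 0 with no variance trend, and 0 to 583 with a pool left out. No interaction was called under any alternative run (limma, 31 to 1311 at an unadjusted p under 0.05). The index difference stayed within 1 SD of its value under each alternative, but that SD of 0.344 includes pool 3. Without pool 3 the difference was 0.179, against 0.0118 with all pools.

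Gene by gene, the median over probe sets turned the sign of *Itgb5* (-0.88), *Fanca* (0.19) and *Rpl27a* (0.000595), and leaving out pool 2 or 4 that of *Il2ra*, whose difference was at lowest -0.029 and at highest 0.16 with 1 pool left out.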

Other observations

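On the DN1 arrays of the same control pools, the genes below that fell from DN2 to DN3 differed in level, given here without a test. The median log2 signal of the natural killer list was 9.23 to 10.9 at DN1 and 3.44 to 3.89 at DN2. That of the myeloid list was 8.09 to 9.40 at DN1 and 4.70 to 5.59 at DN2. What cells other than early thymocytes contribute to the DN1 levels was not tested. *Lyl1* had signals of 70.1 to 151 at DN1, below its lowest DN2 signal of 582. *Nfe2* (65.97 to 148) and *Cpa3* (298 to 568) were likewise lower at DN1 than at DN2. For *Tyrobp* (2683 to 7589), *Ctss* (1194 to 3185) and *Gzmb* (1558 to 4494) every DN1 signal was above every DN2 signal. The first 3 genes thus had their highest signals of the 3 stages at DN2, and the other 3 at DN1.

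Among the rises, *Notch3* (53.1 to 685 at DN1), *Uaca* (0.980 to 29.8) and *Ctla4* (0.634 to 143) were lowest at DN1, whereas *Lef1* was at 138 to 1834 there. These levels are descriptions with no test.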
